A study of Mus musculus with 16 samples.

Results

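Hox cluster genes were followed across 16 libraries of bulk RNA from mouse pluripotent cells in culture. The members were the rows of the deposited count table with a symbol of Hox, a cluster letter from a to d, and a paralog number. Of 39 such genes expected, 37 were found among the 34042 rows of the table, with 10 in HoxA and 9 each in HoxB, HoxC and HoxD. Hoxa6 and Hoxb5 were not analysed here.

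The 4 culture conditions gave the groups, and Hox levels were compared among them. For 2iL medium there were 4 libraries of embryonic stem cells, from passages 12, 13, 15 and 20 of E14IV-C. Formative stem cells in A3XR medium gave 6 libraries, from passages 10, 12 and 14 of the line 5ar1 and passages 4, 5 and 12 of the line 5ar3. Epiblast stem cells (EpiSCs) gave 3 libraries of the line AFX6 in AFX medium at passages 5, 8 and 12, and 3 of the line AF32 in AF medium at passages 13, 14 and 15. The labels do not spell out what the media hold, and no genotype or treatment is given for any line. Apart from A3XR, each medium was sampled in 1 line, so medium and line cannot be told apart. Libraries of a line are passages of it, and p-values therefore measure mainly the spread between passages, which may be partly technical. Where media are compared, the spread within A3XR also holds the difference between 5ar1 and 5ar3.

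Hox genes encode homeodomain transcription factors that give cells their position along the body axis. In the mouse they lie in 4 clusters, in which genes with low paralog numbers are switched on early and at anterior levels and genes with high numbers late and at posterior levels. Retinoic acid, Wnt and Fgf signals and the Cdx factors open the clusters in the embryo, Polycomb complexes keep them silent in pluripotent cells, and Pbx and Meis proteins bind DNA together with Hox proteins.

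On GRCm38, with gene models of GENCODE release M21, the members spanned a stretch of chromosome 6 (HoxA), chr11:96194316-96368256 (HoxB), chr15:102921103-103036852 (HoxC) and chr2:74668310-74765142 (HoxD). RefSeq promoter windows, from 250 bases before to 50 after a start, were given for 21 of the 37 members. The windows of 4 genes are printed because these genes had contrasting patterns. Hoxb1 and Hoxa2 were counted mainly in AF, Hoxc4 mainly in 2iL, and Hoxd13 in every group. Capitals mark a Pbx-Hox motif (TGATNNAT) or a TATA box (TATAAA) on either strand, and where both strands match, the capitals run together.
Hoxb1, GRCm38.p6 chr11:96365508-96365807, plus strand: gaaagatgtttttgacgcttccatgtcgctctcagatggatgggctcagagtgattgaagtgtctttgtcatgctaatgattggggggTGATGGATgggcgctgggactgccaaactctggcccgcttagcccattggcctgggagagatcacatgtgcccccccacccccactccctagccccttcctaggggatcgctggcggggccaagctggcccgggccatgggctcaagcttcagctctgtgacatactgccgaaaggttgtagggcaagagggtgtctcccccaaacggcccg
Hoxa2, GRCm38.p6 chr6:52164782-52165081, minus strand: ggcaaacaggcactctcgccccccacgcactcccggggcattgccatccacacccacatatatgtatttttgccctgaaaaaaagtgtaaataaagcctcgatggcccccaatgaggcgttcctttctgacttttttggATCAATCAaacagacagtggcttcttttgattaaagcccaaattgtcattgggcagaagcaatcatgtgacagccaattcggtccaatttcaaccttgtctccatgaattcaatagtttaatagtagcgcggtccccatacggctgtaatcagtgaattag
Hoxc4, GRCm38.p6 chr15:103034145-103034444, plus strand: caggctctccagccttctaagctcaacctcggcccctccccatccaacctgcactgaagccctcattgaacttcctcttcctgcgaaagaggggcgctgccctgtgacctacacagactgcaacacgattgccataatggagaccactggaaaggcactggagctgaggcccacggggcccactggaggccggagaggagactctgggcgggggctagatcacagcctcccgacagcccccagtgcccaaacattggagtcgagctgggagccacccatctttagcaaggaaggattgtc
Hoxd13, GRCm38.p6 chr2:74667975-74668274, plus strand: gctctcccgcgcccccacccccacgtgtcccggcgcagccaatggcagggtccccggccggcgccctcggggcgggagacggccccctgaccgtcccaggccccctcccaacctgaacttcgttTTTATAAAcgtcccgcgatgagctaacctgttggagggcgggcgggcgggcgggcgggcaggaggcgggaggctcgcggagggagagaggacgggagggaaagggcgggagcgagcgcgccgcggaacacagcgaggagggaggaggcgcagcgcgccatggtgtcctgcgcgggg
The Pbx-Hox motif was present in the windows of 4 of 21 Hox genes (Hoxa2, Hoxb1, Hoxb8 and Hoxd11) and in 8.85% of all 32851 windows in the table. The TATA box was found in 4 of 21 Hox genes, against 13.6% of all windows. The Hoxc4 window held neither. Hox windows held a median of 14 CpG sites, against 7 over all windows, and the Hoxd13 window held 37. These matches describe letters in a window and say nothing about binding.

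Total counts per library ranged from 22069338 to 33290250. The naive markers Zfp42, Esrrb, Klf4, Klf2, Tfcp2l1, Tbx3 and Nanog summed to 3171 to 4272 CPM (counts scaled to the library size after TMM normalization) in 2iL and to 92.5 to 265 CPM elsewhere, and Zfp42 was at or under 3 counts in every A3XR and AFX library. Formative and primed markers (Fgf5, Otx2, Pou3f1, Dnmt3b and Sox3) summed to 39.7 to 103 CPM in 2iL and 840 to 2254 CPM elsewhere. Xist, which marks an inactive X chromosome, had 7241 to 16503 counts in AFX and at most 16 in any other library. The Y-linked Ddx3y had 2 to 8 counts in AFX and at least 1897 in every other library. Sex, which these genes mark, therefore cannot be told apart from medium and line in AFX. The mitochondrial gene mt-Rnr2 took 38.1% of the counts of the 2iL library at passage 12 and at most 25.0% elsewhere.

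Hox genes were scarce in all 16 libraries. Their counts together came to 312, 550, 616 and 737 per library in 2iL at passages 12, 13, 15 and 20, and to 8 to 26 in A3XR. In AFX they came to 51, 23 and 18 at passages 5, 8 and 12, and in AF to 306, 187 and 26 at passages 13, 14 and 15. The AF library at passage 15 therefore lay with A3XR and AFX, and the other AF libraries overlapped none of these. In CPM the sums were 21.6 to 31.3 in 2iL, 0.368 to 0.990 in A3XR, 0.607 to 1.82 in AFX, and 9.84, 6.11 and 0.920 in AF. No member passed 10 CPM in any library, and the highest value was 8.79 CPM, for Hoxc13 in 2iL at passage 15. In bulk samples, fewer cells that express a gene and less RNA per cell cannot be told apart.

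**Figure D1:**
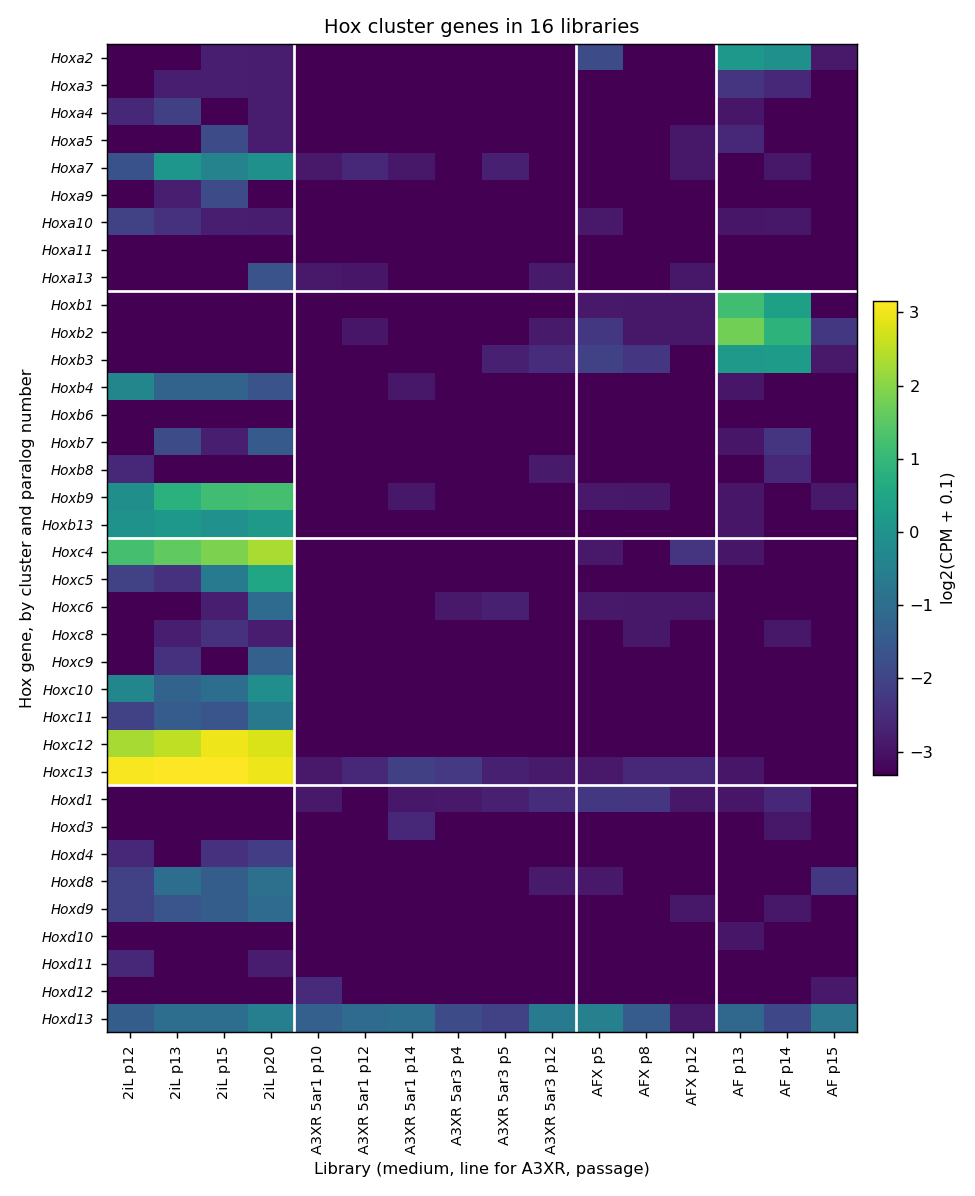
Level of Hox genes (rows, by cluster and paralog number) in each of the 16 libraries (columns), as log2(CPM + 0.1). White lines separate clusters and media. Hoxc4, Hoxc12 and Hoxc13 are bright in the 4 libraries in 2iL, while Hoxc6, Hoxc8 and Hoxc9 are dark in most of them. Hoxa2, Hoxb1, Hoxb2 and Hoxb3 are bright in the AF libraries at passages 13 and 14, and Hoxd13 is faint in every group.

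A member was taken as detected in a group if every library of the group held more than 3 counts, the upper limit that a count of 0 allows (counting error only). Such a limit corresponded to 0.128 to 0.207 CPM in 2iL, 0.0956 to 0.141 CPM in A3XR, 0.101 to 0.107 CPM in AFX and 0.0964 to 0.106 CPM in AF. By this rule 9 of 37 members were detected in 2iL (among them Hoxb4, Hoxb9, Hoxb13, Hoxc4, Hoxc10, Hoxc12, Hoxc13 and Hoxd13), none in A3XR or AFX, and only Hoxd13 in AF. With more than 3 counts in at least 1 library, 20 members were found in 2iL, 2 in A3XR (Hoxc13 and Hoxd13), 4 in AFX (among them Hoxa2, Hoxb3 and Hoxd13) and 6 in AF (among them Hoxa2, Hoxb1, Hoxb2, Hoxb3 and Hoxd13). Without the AF library at passage 15, 6 members were detected in AF rather than 1. In all, 13 members stayed at or under 3 counts in every library, among them Hoxa11 and Hoxb6 at 0 throughout, and any lower expression of these genes was not detectable at this depth.

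By paralog number the groups held different genes. In 2iL, paralogs 9 to 13 gave 72.3% of all Hox counts, paralogs 4 to 8 gave 22.3% and paralogs 1 to 3 gave 5.37%. In AF, paralogs 1 to 3 gave 89.4% of the counts, paralogs 4 to 8 gave 3.08% and paralogs 9 to 13 gave 7.51%. The order was turned in the AF library at passage 15, where paralogs 1 to 3 had 7 and paralogs 9 to 13 had 16 of 26 counts. Detection followed the same split: in 2iL 8 of 13 members of paralogs 4 to 8 and 11 of 16 of paralogs 9 to 13 passed 3 counts in a library, and in AF 0 of 13 and 1 of 16 did, with 5 of 8 of paralogs 1 to 3. By cluster, HoxC gave 74.5% of the Hox counts in 2iL and 0.578% in AF, while HoxB gave 12.1% in 2iL and 65.1% in AF, although at AF passage 15 HoxB had 5 and HoxD 18 of the 26 counts. In A3XR 64.4% of only 101 counts over 6 libraries were HoxD, 54 of them Hoxd13. In AFX paralogs 1 to 3 also gave the largest share, 48.9% of only 92 counts, with 12% from paralogs 4 to 8 and 39.1% from paralogs 9 to 13. Paralogs 1 to 3 had 28 of 51 counts in AFX at passage 5, 10 of 23 at passage 8 and 7 of 18 at passage 12. These are shares of counts, not corrected for gene length, and were not tested.

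**Figure D2:**
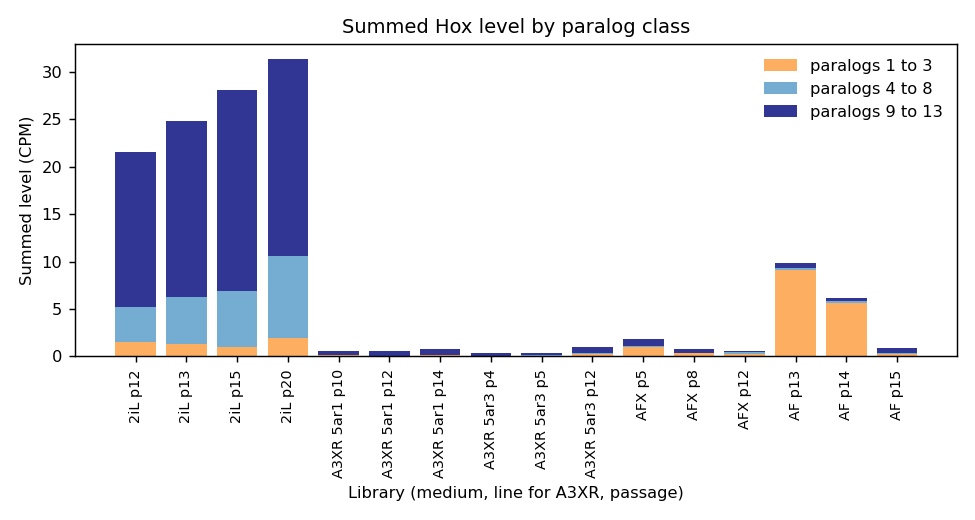
Summed CPM of the Hox genes in each library, stacked by paralog class (bars, from 0). Paralogs 9 to 13 fill most of the bars in 2iL, and paralogs 1 to 3 most of the bars in AF at passages 13 and 14. The bars of A3XR, AFX and AF at passage 15 stay at or under 1.82 CPM.

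Posterior HoxC genes carried the signal in 2iL. Hoxc13, a paralog 13 gene known for its part in hair and nail formation, was at 8.36, 8.72, 8.79 and 7.78 CPM in 2iL at passages 12, 13, 15 and 20. It ranged from 0.0371 to 0.135 CPM in A3XR (median 0.0554), was at 0.0357, 0.0678 and 0.0675 CPM in AFX at passages 5, 8 and 12, and had 1, 0 and 0 counts in AF. All 2iL libraries lay far above all others, and their spread was small, at 8.41 ± 0.462 CPM (SD, n = 4).

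Its neighbour Hoxc12 was at 4.84, 5.74, 7.84 and 6.84 CPM in 2iL and had 0 counts in all 12 other libraries. This put it at least 56.2-fold higher in 2iL than in A3XR, at least 61.1-fold higher than in AFX and at least 63-fold higher than in AF, taking 3 counts per library as the limit. Hoxc4, at the other end of the cluster, was at 2.28, 2.89, 3.60 and 4.89 CPM in 2iL, with 0 counts in A3XR, 4 over the AFX libraries and 1 over the AF libraries. The ranges did not overlap, and Hoxc4 was at least 30.4-fold higher in 2iL than in A3XR.

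The HoxC genes between these ends were lower. Hoxc10 was at 0.691, 0.316, 0.410 and 0.808 CPM in 2iL and Hoxc11 at 0.138, 0.271, 0.228 and 0.510 CPM. Hoxc5 had 2, 2, 12 and 31 counts, and shares 166 exon bases with Hoxc10 on the same strand. All 3 had 0 counts in all libraries outside 2iL. Per length, Hoxc12 led with 6.12 CPM per kb of exon in 2iL, followed by Hoxc13 with 3.42 and Hoxc4 with 1.33, while Hoxc10 was at 0.291. Only Hoxc12 and Hoxc13 passed the median of the tested genes, 3.03 CPM per kb, and the level of Hoxc12 was above that of 63.0% of them. The highest Hox level per kb was 0.13 in A3XR and 0.122 in AFX, both Hoxd13, and 0.492 in AF, for Hoxb2.

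Several HoxC genes were highest in the 2iL library of the latest passage. Of 8 HoxC members with more than 3 counts in a 2iL library, 6 were highest at passage 20 (Hoxc4, Hoxc5, Hoxc6, Hoxc9, Hoxc10 and Hoxc11), and Hoxc12 and Hoxc13 at passage 15. In HoxD the 3 such members, Hoxd8, Hoxd9 and Hoxd13, were all highest at passage 20, as were 3 of 4 in HoxB and 2 of 5 in HoxA. At passage 20 Hoxc6 and Hoxc9 had only 9 and 7 counts. The share of all genes that were highest at passage 20 was not counted, so nothing particular to Hox genes can be read from these counts. With 4 libraries of 1 line, this is given as a description, and it was noticed after the values were seen.

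**Figure D3:**
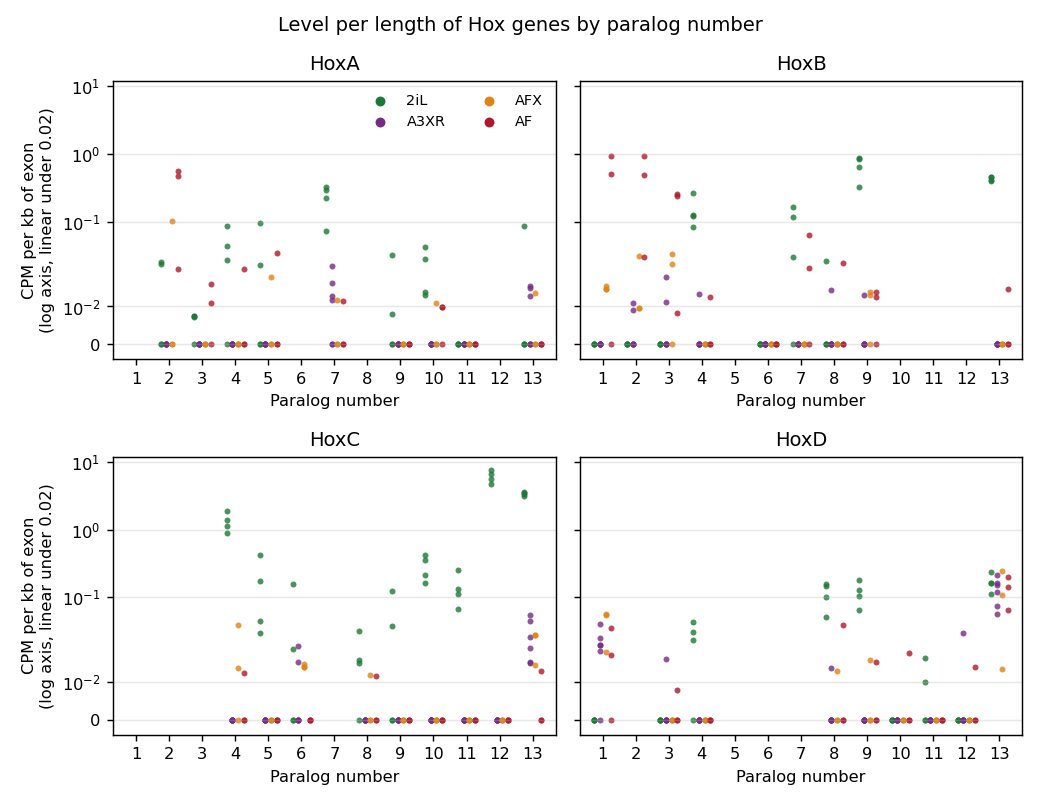
CPM per kb of exon for Hox genes (paralog number on the x axis, 1 panel per cluster), with 1 point per library coloured by medium; the y axis is logarithmic and linear under 0.02. In HoxC the 2iL points stand at both ends of the cluster, and in HoxA and HoxB the AF points stand at low paralog numbers.

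In HoxB, Hoxb9 and Hoxb13 were counted in 2iL. Hoxb9, a gene of the thoracic skeleton, was at 0.829, 1.67, 2.14 and 2.25 CPM there, and had at most 1 count in any other library. Hoxb13, which lies apart from the rest of HoxB and acts in the tail and prostate, was at 0.898, 0.994, 0.866 and 1.02 CPM in 2iL, with a single count in 1 AF library and 0 elsewhere. Neither gene overlapped between 2iL and any other group, and Hoxb13 was at least 8.4-fold higher in 2iL than in A3XR. Hoxb4, used in work on blood stem cells, had 10, 7, 7 and 5 counts in 2iL and at most 1 elsewhere.

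In HoxA, Hoxa7, a gene of the thoracic axis, was counted in 2iL. Hoxa7 was at 0.207, 0.948, 0.638 and 0.850 CPM in 2iL and had at most 2 counts in any other library. Hoxa7 shares 586 exon bases with its antisense neighbour Hoxaas3, and the strand setting of the counting is not given in the sources used here. Hoxaas3 had at most 5 counts in any library. Hoxa13, the limb and hindgut gene at the posterior end, had 0, 0, 0 and 5 counts in 2iL.

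HoxD stayed near the limit in every group. Hoxd13, a gene of the digits and genital tubercle, was at 0.276, 0.406, 0.410 and 0.595 CPM in 2iL, and at 0.141 to 0.533 CPM in A3XR (median 0.340). It was at 0.607, 0.271 and 0.0337 CPM in AFX at passages 5, 8 and 12, and at 0.354, 0.163 and 0.495 CPM in AF. All 4 groups overlapped. Hoxd1 had 0 counts in 2iL and at most 3 in any other library. Hoxd8 had 2, 9, 6 and 10 counts and Hoxd9 had 2, 5, 6 and 9 counts in 2iL, with at most 3 elsewhere. Hoxd3 and Hoxd4, which share exon bases, had at most 3 counts in any library.

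The test across genes held few of these members. After the filter on low counts 8 of 37 members were among the 18555 genes tested (among them Hoxa7, Hoxb9, Hoxb13, Hoxc4, Hoxc12, Hoxc13 and Hoxd13) and 29 were not. Since 7 of the 8 had passed through their level in 2iL, a difference from 2iL follows in part from the filter, and their count supports nothing about the others. Calls were made at an adjusted p under 0.05. The 3 comparisons with 2iL share its 4 libraries.

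Against 2iL, A3XR had 7 members lower and none higher, where 29.9% of all tested genes were lower and 32.9% higher. Hoxc13 had the smallest adjusted p (log2 fold change -6.75, SE 0.34, edgeR adjusted p = 3.15e-11). For Hoxa7 the log2 fold change was -4.26 (SE 0.64, edgeR adjusted p = 1.92e-05). Hoxb9, with 149 counts in 2iL and 1 in A3XR, had a ratio of 295 (95% counting interval 52.1 to 1.17e+04; edgeR adjusted p = 2.82e-08). Hoxc12, Hoxc4 and Hoxb13, with 0 counts in A3XR, had edgeR adjusted p of 3.9e-07, 2.03e-07 and 5.42e-06. Hoxd13 did not pass (log2 fold change -0.38, SE 0.54, edgeR adjusted p = 0.552).

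AFX against 2iL had the same 7 members called lower, where 26.2% of all tested genes were lower and 28.5% higher; no member was higher. Hoxc13 was lower (log2 fold change -7.08, SE 0.48, edgeR adjusted p = 1.95e-09). For Hoxb9, Hoxc4, Hoxc12, Hoxb13 and Hoxa7 the edgeR adjusted p was 3.01e-06, 1.45e-05, 4.32e-06, 6.23e-05 and 0.000116. With passage as a covariate 6 members were called, and 1 of the 7 calls was also lost without the AFX library at passage 8. Hoxd13 did not pass (log2 fold change -0.50, edgeR adjusted p = 0.537).

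AF against 2iL had 6 members lower, where 27.0% of all tested genes were lower and 29.7% higher; no member was higher. These were Hoxa7, Hoxb9, Hoxb13, Hoxc4, Hoxc12 and Hoxc13, and Hoxc13 had 690 counts in 2iL and 1 in AF, a ratio of 756 (95% counting interval 135 to 2.99e+04; edgeR adjusted p = 7.43e-10). Hoxd13 did not pass (log2 fold change -0.35, edgeR adjusted p = 0.667).

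With no filter on low counts, 35 members and 32039 genes were tested. A3XR then had 21 members lower than 2iL (19.6% of all genes), AFX had 14 lower (15.7%) and 1 higher (17.2%), and AF had 13 lower (16.1%) and 4 higher (18.6%). The 4 higher in AF were Hoxa2, Hoxb1, Hoxb2 and Hoxb3. The 1 higher in AFX was Hoxd1, with 0 counts in 2iL and at most 3 in an AFX library, which gives no fold.

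Among A3XR, AFX and AF most HoxA and HoxB genes of paralogs 1 to 3 differed by library within AF. Hoxb2, a hindbrain gene, was at 3.31, 1.73 and 0.106 CPM in AF at passages 13, 14 and 15. Hoxb1, needed in the hindbrain for the facial nerve, was at 2.15, 1.18 and 0 CPM, and Hoxb3 at 1.03, 1.08 and 0.0354 CPM. Hoxa2, the gene of the second pharyngeal arch, was at 0.996, 0.850 and 0.0354 CPM. In 2iL Hoxb1, Hoxb2 and Hoxb3 had 0 counts in all 4 libraries and Hoxa2 had at most 1, and in A3XR none of the 4 genes passed 2 counts in a library. In AFX the library at passage 5 had 5 counts of Hoxa2, 4 of Hoxb3, 3 of Hoxb2 and 1 of Hoxb1, and the others at most 3 of any of these. Passages 13 and 14 of AF were thus above every library outside AF for Hoxa2, Hoxb1, Hoxb2 and Hoxb3, and passage 15 lay within the range of AFX for all 4 of these genes except Hoxb1, which had 0 counts.

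The AF passages were then compared gene by gene. Among HoxA and HoxB genes of paralogs 1 to 3, 6 of 6 were higher in both passages 13 and 14 than at passage 15, against 3 of the 31 other members, of which 12 were at 0 in AF. One of the 6, Hoxa3, had only 3, 2 and 0 counts at passages 13, 14 and 15, never over the limit of 3. The split follows the pattern already described, and of the other members only Hoxd13 passed 3 counts in an AF library. The contrast was thus largely set in advance and supports nothing further, and the share over all genes was not counted. Of 15953 genes with at least 20 counts in an AF library, 32 (0.201%) were at least 5-fold higher in both passages 13 and 14, and these held 5 Hox genes (among them Hoxa2, Hoxb1, Hoxb2 and Hoxb3) and the neighbouring non-coding genes Hoxb3os and Hoxaas2. These limits were chosen after the values were seen. The other genes among the 32 were of several kinds, and no theme was tested. They included Olig3 (1.64, 0.948 and 0.0708 CPM), a gene of dorsal hindbrain progenitors, and Fgf3 (0.964, 0.752 and 0.0708 CPM), a hindbrain signal. Wnt3a was at 0.771, 0.686 and 0.106 CPM, and Nkx1-2, a gene of axial progenitors, at 21.9, 26.5 and 4.32 CPM. Hes5, a Notch target of neural progenitors, was at 1.48, 0.654 and 0.0708 CPM. Also among them were Hand1 (0.932, 0.752 and 0.142 CPM), a gene of heart and trophoblast, Krt80 (0.804, 0.882 and 0.142 CPM), a keratin, Cd80, an immune ligand, Apob, an apolipoprotein, and the Y-linked Kdm5d (1.29, 0.784 and 0.0354 CPM). Another Y-linked gene, Ddx3y, had 3309 to 3552 counts in the AF libraries.

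Marker lists of cell types were then read in the same libraries. In AF the 10 posterior mesoderm and neuromesodermal markers summed to 133.7, 164.9 and 38.5 CPM at passages 13, 14 and 15, and 6 of 10 were higher in both passages 13 and 14 than at passage 15, with Cdx4 and Mesp2 at or under 3 counts. The sums were 2.20 to 4.75 CPM in A3XR, 3.02 to 16.2 CPM in AFX and 40.3 to 66.1 CPM in 2iL, where Hoxb1, Hoxb2 and Hoxb3 had no count. The 10 neural markers summed to 541.1, 316.8 and 540.6 CPM in AF, and 8 of 10 were higher in both passages 13 and 14. The 6 endoderm markers summed to 192.2, 544.5 and 319.1 CPM, with 1 of the 6 higher in both. The 11 fibroblast markers summed to 92.1, 46.6 and 68.5 CPM, with 3 of the 11 higher in both. Of these lists, only the posterior mesoderm and neuromesodermal sum was higher at both passages 13 and 14 than at passage 15. No share over all genes was counted beside these marker counts. The part of other cell types in the Hox levels was not tested.

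**Figure D4:**
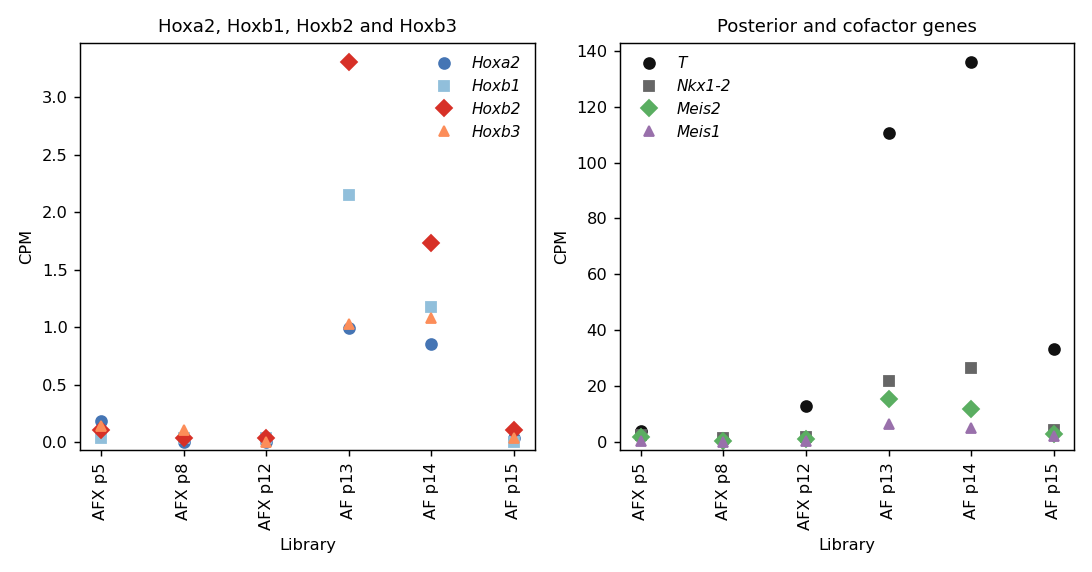
CPM in the 6 EpiSC libraries (1 point per gene and library) of Hoxa2, Hoxb1, Hoxb2 and Hoxb3 (left) and of T, Nkx1-2, Meis2 and Meis1 (right), with linear axes. Both sets are high in AF at passages 13 and 14. At passage 15 the Hox genes are at or under 0.106 CPM, while T remains at 33.3 CPM. The genes on the right are a selection from longer lists, and only 6 of the 10 posterior markers were higher at both passages than at passage 15.

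Between A3XR and AF, 1 of the 8 tested members was lower in A3XR by edgeR, as were 8.81% of all tested genes, and no member was higher, where 7.84% of genes were. With the library at passage 15 alone in AF, 13 members passed the filter and 0 were called, in a fit that takes this library to vary like those of the other groups. Without the library at passage 15, 14 members passed and 5 were lower. Hoxa2, Hoxb1, Hoxb2 and Hoxb3 then passed the filter only through AF, where they are high, so these counts cannot be set beside the count of 1 among 8.

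With no filter on low counts 5 members were lower in A3XR than in AF, where 5.07% of all genes were. They included Hoxb2 (159 counts in AF and 2 in A3XR, ratio 144, 95% counting interval 39.1 to 1.2e+03, edgeR adjusted p = 2.33e-05) and Hoxb3 (66 and 3 counts, ratio 39.7, 95% counting interval 13 to 198, edgeR adjusted p = 0.00156). Hoxb1 (103 counts in AF) and Hoxa2 (58 counts) had 0 counts in A3XR. Their mean levels in AF were at least 9.88-fold and at least 5.58-fold higher, taking 3 counts per library as the limit. These folds do not hold for the AF library at passage 15, which had 0 counts of Hoxb1 and 1 of Hoxa2. For Hoxb1 and Hoxb3 the AF library at passage 15 overlapped the A3XR range, and for Hoxb2 it had 3 counts, which is not over the limit. HoxB lies on chromosome 11, where the median log2 difference of all tested genes between A3XR and AF was -0.39, against 0.06 on other chromosomes, and 37.2% of genes were called. HoxA, on chromosome 6, had a median of 0.07.

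The comparison of AFX with AF shares the AF libraries with the one above. No member was called between them, where 4.26% of all tested genes were (edgeR; 1 member at an unadjusted p under 0.05, and 0 by DESeq2). With no filter on low counts Hoxb2 was lower in AFX (5 against 159 counts, ratio 30.8, 95% counting interval 12.9 to 96.2, edgeR adjusted p = 0.00715), as were 1.45% of all genes. With the filter it could be tested in 4 of the fits that leave out 1 library, and was called in 1 of these (edgeR adjusted p 0.00191 to 0.091). Without the AF library at passage 15, 2 members were lower in AFX, of 14 rather than 8 that passed the filter. The chromosome 11 median was -0.42 in this comparison, against 0.02 elsewhere.

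A3XR and AFX did not differ by a called member, where 5.00% of all tested genes were called (edgeR; 2 members at an unadjusted p under 0.05, and 0 by DESeq2). Among these was Hoxc4, with 0 counts in A3XR and 4 over the AFX libraries. The 2 formative lines also had no member called, where 3.88% of tested genes were (edgeR; 0 members at an unadjusted p under 0.05, and 0 by DESeq2). At 8 to 26 Hox counts per A3XR library, differences within these groups were mostly not detectable at this depth.

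Non-coding rows inside the clusters were read next. Of 26 other rows lying within the cluster spans, 12 passed 3 counts in a library. Gm53, a long intergenic RNA gene at chr11:96251105-96264868 on the plus strand, between Hoxb13 and Hoxb9, was the most abundant of these after the pseudogene Gm11539, which was read in every library. Gm53 was at 21.1, 30.9, 30.2 and 25.8 CPM in 2iL and at most 0.141 CPM in any other library. The log2 fold change in A3XR against 2iL was -8.80 (SE 0.37, edgeR adjusted p = 4.01e-12). The row of Mir196a-1, at chr11:96265164-96265265 on the same strand, had 27, 43, 58 and 67 counts in 2iL and 0 in A3XR and AFX, with 2 in AF. It was at least 20.7-fold higher in 2iL than in A3XR (edgeR adjusted p = 1.83e-06).

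The counts on that row are reads of long-RNA libraries over the hairpin and not of the mature miRNA. The mature miRNAs encoded in the clusters are printed because miR-196 is known to target Hox messages and miR-196a-5p lies within the row that was counted. Capitals mark the seed, bases 2 to 8.
mmu-miR-196a-5p, GRCm38.p6 chr11:96265187-96265208, plus strand: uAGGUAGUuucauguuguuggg
mmu-miR-196b-5p, GRCm38.p6 chr6:52230129-52230150, minus strand: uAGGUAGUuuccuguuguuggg
mmu-miR-10a-5p, GRCm38.p6 chr11:96317186-96317208, plus strand: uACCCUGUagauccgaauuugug
mmu-miR-10b-5p, GRCm38.p6 chr2:74726074-74726096, plus strand: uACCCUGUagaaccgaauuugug
Both miR-196 forms share 1 seed and both miR-10 forms another. The same mature miR-196a-5p is also encoded in HoxC, by Mir196a-2.

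**Figure D5:**
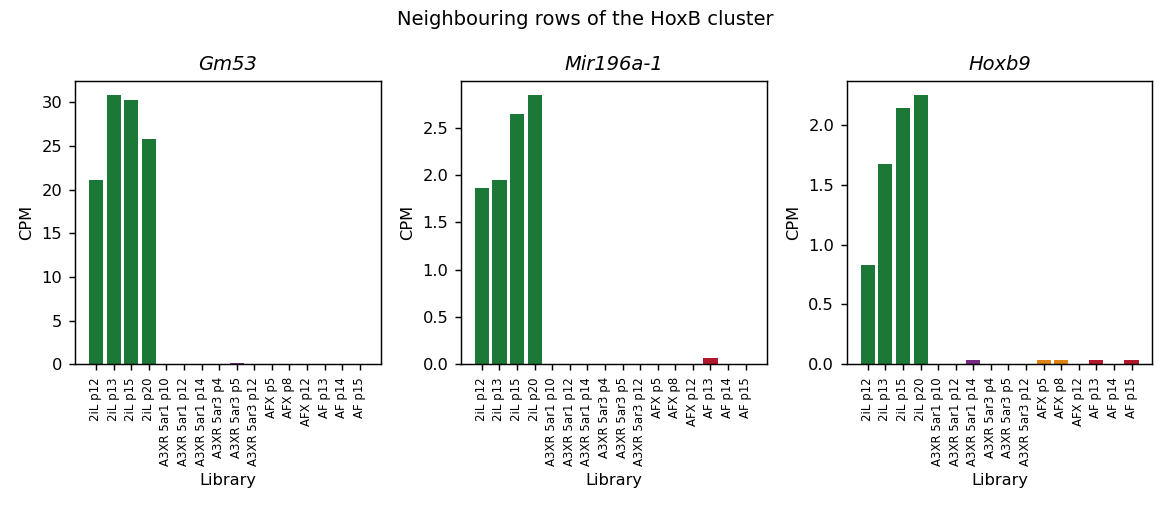
CPM of Gm53, Mir196a-1 and Hoxb9, neighbours in HoxB, in each of the 16 libraries (bars from 0, coloured by medium; each panel has its own scale). The bars in 2iL reach 30.9, 2.85 and 2.25 CPM, and all others are at or under 0.141 CPM.

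Hoxb3os and Hoxaas2, non-coding genes of HoxB and HoxA, were also higher in AF at passages 13 and 14 than at passage 15. Hoxb3os, which shares 2250 exon bases with Hoxb3 and 953 with Hoxb2 on the opposite strand, had 88, 43 and 3 counts in AF at passages 13, 14 and 15, 3 counts in 1 AFX library and 0 in all others. Hoxaas2 had 30, 13 and 0 counts in AF and at most 2 elsewhere. Reads of Hoxb2 and Hoxb3 and of their antisense partner may not be separated in these counts. Halr1, a non-coding gene that neighbours HoxA, was lower in A3XR than in 2iL (log2 fold change -4.76, SE 0.72, edgeR adjusted p = 2.07e-05) and than in AF (-3.82, SE 0.78, edgeR adjusted p = 0.00261).

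Upstream regulators of Hox genes were then compared. Of 15 tested regulators, 6 were higher and 7 lower in A3XR than in 2iL, where 32.9% of all tested genes were higher and 29.9% lower, with a median log2 fold change of 0.80 against 0.04 over all genes. Cdx1, which binds Hox promoters and promotes posterior identity, was at 14.5 to 25.1 CPM in 2iL and had at most 1 count in any other library (log2 fold change in A3XR -10.81, SE 0.45, edgeR adjusted p = 2.11e-11). Aldh1a2, which makes retinoic acid, was lower in A3XR than in 2iL (log2 fold change -6.02, SE 0.63, edgeR adjusted p = 2.74e-07). Cyp26a1, which breaks it down, was at or under 0.0452 CPM in 2iL, 0 to 8.57 CPM in A3XR and 36.6, 98.8 and 45.0 CPM in AF. Cdx1 and Aldh1a2 were both among the 7 regulators called lower and do not stand for the list, in which 6 were called higher.

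Against AF, 9 of 15 regulators were lower in A3XR and none was higher (all tested genes: 8.81% lower and 7.84% higher), with a median of -2.44 against 0.04 over all genes. T, the mesoderm factor brachyury, was at 110.5, 136.1 and 33.3 CPM in AF and 0.0956 to 2.50 CPM in A3XR (log2 fold change -6.44, SE 0.79, edgeR adjusted p = 5.15e-05). Wnt3a was lower (log2 fold change -4.96, SE 0.95, edgeR adjusted p = 0.00151), as was Fgf8 (log2 fold change -3.91, SE 0.79, edgeR adjusted p = 0.00281). Against AF, AFX had 3 of 15 lower (Aldh1a2, Wnt3a and T) and none higher, where 4.26% of all tested genes were called in either direction.

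Each of the 9 Hox cofactors passed the low-count filter, although Meis1 came down to 0.102 CPM in AFX, near the limit of 3 counts. Of 9 tested, 5 were higher and 1 lower in A3XR than in 2iL (all tested genes: 32.9% higher and 29.9% lower), with a median of 0.57 against 0.04 over all genes. Pbx3 was at 2.53 to 4.51 CPM in 2iL and 48.2 to 66.9 CPM in A3XR (log2 fold change 4.27, SE 0.18, edgeR adjusted p = 4.65e-12). Meis2 was lower in A3XR (log2 fold change -3.55, SE 0.62, edgeR adjusted p = 0.000103), and at 15.2, 11.8 and 2.97 CPM in AF. Meis1, a retinoic acid target in many cells, was at 6.27, 4.90 and 2.19 CPM in AF and 0.102 to 0.405 CPM in AFX (AFX against AF: log2 fold change -3.88, SE 0.96, edgeR adjusted p = 0.028).

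Of 24 Polycomb and Trithorax genes, 6 were higher and 6 lower in A3XR than in 2iL. Both shares lay under those of all tested genes (32.9% higher and 29.9% lower), and the median log2 fold change was 0.00 against 0.04 over all genes. The core subunits of Polycomb repressive complex 2 that passed were lower, Eed (log2 fold change -1.56, SE 0.14, edgeR adjusted p = 6.19e-08) and Suz12 (log2 fold change -1.55, SE 0.15, edgeR adjusted p = 1.1e-07). The accessory subunit Mtf2 was lower (log2 fold change -2.19, SE 0.20, edgeR adjusted p = 3.86e-08), while the accessory subunit Phf19 was higher by 1.55. Cbx2, a reader of the Polycomb mark, was higher by 1.39 (SE 0.18, edgeR adjusted p = 3.38e-06) and Phc1 by 1.10 (SE 0.17, edgeR adjusted p = 1.98e-05). Wdr5, of the Trithorax complexes, was lower (log2 fold change -1.56, SE 0.14, edgeR adjusted p = 2.58e-08).

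Genes beside the clusters included some with differences as large as those of Hox genes. Of 19 tested flanking genes, 3 were higher and 9 lower in A3XR than in 2iL, beside 32.9% and 29.9% of all tested genes. Calcoco2, an autophagy receptor near HoxB, was at 124, 107, 81.6 and 75.5 CPM in 2iL and at most 0.106 CPM elsewhere (log2 fold change -11.41, SE 0.32, edgeR adjusted p = 5.99e-14). Skap2, an adaptor protein gene beside HoxA, was at 78.3 to 92.2 CPM in 2iL and 7.68 to 17.9 CPM elsewhere (log2 fold change in A3XR -3.11, SE 0.16, edgeR adjusted p = 2.66e-11).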

How the data were processed

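The authors deposited raw read counts per gene in 1 table. Per the submitters' processing notes, Trim Galore, TopHat2 2.1.0 and featureCounts 1.5.0 were used with mm10. Per the labels' protocols, a directional kit was used on total RNA. The annotation release and strand setting are not given in the sources used here, so overlapping and antisense genes are uncertain. A further 6 columns matched no sample and were not used. Coordinates, exon lengths and overlaps came from GENCODE release M21 (GRCm38), which had all 37 members under the same symbol, and promoter and miRNA sequences from RefSeq (GRCm38.p6).

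The main analysis of the counts used edgeR 4.0.16 (R 4.3.3): filterByExpr by group, TMM, and a robust quasi-likelihood fit of a mean per medium over all 16 libraries, with Benjamini-Hochberg adjustment over all genes tested and calls under 0.05. The formative lines were compared with a mean per line. The procedure was tested on simulated data. Ratios of pooled counts carry 95% exact counting intervals.

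Genes written out are called members, the highest member of each cluster, paralogs 1 and 13, and genes of the lists; other members were chosen after their values were seen. Results for some genes are not reported here, although counts of members include them. The members and lists were chosen with earlier results of these data known. Alternatives were DESeq2 1.42.0 (size factors or the Wald test), total counts, testing genes of any count, requiring a mean of 1 CPM, passage as a covariate, fewer groups or lines, other detection limits and leaving out each library; AF with passage 15 alone was added after seeing the data.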

Additional observations from a re-analysis of the deposited data

Results flagged for a closer look

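In 2iL, Hoxa13 was at 0.213 CPM in the library at passage 20 and at 0 in the other 3 libraries, and Hoxc6 was at 0.383 CPM at passage 20 and between 0 and 0.0456 CPM in the others. Each passed the limit of Dixon's test at the 95% level, on 5 and 9 counts. For Hoxa13 this was set in advance, since with the other 3 libraries at 0 any count gives the largest ratio. The values of 32 genes or cluster sums in 2iL and A3XR were examined in this way and 2 passed. Chance gives about 1 in 20 for continuous values, but this rate does not hold for genes with several libraries at 0. No conclusion is drawn from these flags.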

How the results depend on the processing

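Of 21 called pairs of a Hox gene and a comparison, none changed direction in 322 fits under alternatives, and 319 of these stayed under the threshold. Most pairs were against 2iL, for members that passed the filter through their level there, so a steady direction follows in part from the filter. Fits in which a member no longer passed the filter are not among the 322. With no low-count filter the members called numbered 21 (A3XR against 2iL), 15 (AFX against 2iL), 17 (AF against 2iL), 5 (A3XR against AF) and 1 (AFX against AF), since 35 members were tested. With a mean of at least 1 CPM only 2 members were tested, and 2, 2 and 2 were called against 2iL and 0 between A3XR and AF. Fitting only A3XR and AF left 1 member tested and 0 called, and with AF passage 15 alone, where 13 were tested, 0 were called between A3XR and AF (9 for AF against 2iL). Total counts as the scale shifted the median of all genes between A3XR and 2iL from 0.04 to 0.40, and those of AFX and AF against 2iL from 0.01 to 0.25 and 0.29, with 7 members still called in the first comparison.

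With each library left out in turn, 6 to 7 members were called for A3XR against 2iL, 6 to 9 for AFX against 2iL, 5 to 12 for AF against 2iL, 1 to 5 for A3XR against AF and 0 to 2 for AFX against AF. In AF comparisons the highest counts came without the AF library at passage 15, where 14 rather than 8 members passed the filter. More than 3 counts in at least 1 library gave 20 (2iL), 2 (A3XR), 4 (AFX) and 6 (AF) detected members. At least 10 counts or at least 0.5 CPM in every library gave 0 in AF. Leaving out single libraries gave 9 to 13 detected in 2iL, 0 to 1 in A3XR (1 without 5ar3 passage 5), 0 to 1 in AFX (1 without passage 12 or 8) and 1 to 6 in AF. No paired analysis was possible because replicates are passages numbered in accession order. Counts of 0 to 3 per library limit what can be said of most members.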

Other observations

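Other homeobox genes of the body axis were also compared. Of 8 tested ParaHox and axial homeobox genes, 2 were higher in A3XR than in 2iL and 4 were lower (all tested genes: 32.9% higher and 29.9% lower), with a median log2 fold change of -2.80 against 0.04 over all genes. Otx2, the forebrain and anterior epiblast gene, was at 8.43 to 18.6 CPM in 2iL and 133 to 215 CPM in A3XR (log2 fold change 3.55, SE 0.25, edgeR adjusted p = 1.55e-09). Gbx2, which limits Otx2 at the midbrain and hindbrain boundary, was lower in A3XR (log2 fold change -6.21, SE 0.52, edgeR adjusted p = 1.45e-08), and so was En2, a gene of the same region (log2 fold change -7.05, SE 0.76, edgeR adjusted p = 3.46e-07). Cdx2, a ParaHox gene of the posterior embryo, was at 0.553 to 0.774 CPM in 2iL and at or under 0.135 CPM in A3XR.

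Against AF, A3XR had 5 of these 8 genes lower and none higher, where 8.81% of all tested genes were lower and 7.84% higher. These were Cdx2, Gbx2, En1, En2 and Mnx1, and Gbx2 was lower (log2 fold change -2.84, SE 0.54, edgeR adjusted p = 0.00154). Cdx2 was at 0.225, 0.621 and 0.0354 CPM in AF at passages 13, 14 and 15.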
